A study of Homo sapiens with 9 samples.

Results

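The mRNAs of the 10 RNA-binding proteins (RBPs) profiled together by antibody-barcode eCLIP (ABC) were themselves read as targets of those RBPs. They are DDX3X, EIF3G, FAM120A, IGF2BP2, LIN28B, PRPF8, PUM2, RBFOX2, SF3B4 and ZC3H11A, 10 of the 21261 annotated genes on which a 10plex library held a merged peak. A peak was taken when it lay on one of these genes on the strand of the gene (GENCODE on GRCh38), which gave 5862 of the 2478204 merged peaks of all 54 libraries. The antibody labelled DDX3 was paired with the gene DDX3X.

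In ABC, cells are crosslinked with ultraviolet light, each RBP is captured with an antibody that carries a DNA barcode, and the barcode is ligated to the RNA fragment held by that RBP. Libraries of all 10 antibodies thus come from 1 tube. The 10plex experiment held 3 replicate pools of K562 cells, a human myeloid leukaemia line, and 2 of HEK293T cells, a human embryonic kidney line, both untreated. RBFOX2 alone was also profiled in 2 singleplex libraries of HEK293T, and SLBP, a protein outside the set, in 2 of K562. The labels of both HEK293T pools also name K562 in 1 field, and the study's methods call the line HEK293XT. Of the markers of K562, the globin gene HBG2 stood at 957 to 1426 RPM (reads scaled to 1e6 per pool) in the 3 K562 pools and at 0.325 to 2.16 in both HEK293T pools, and TAL1 at 92.4 to 110 and at 0. Of the markers of HEK293, CDH2 stood at 0 in K562 and at 151 to 194 in HEK293T, and NEFL at 0 and at 74.2 to 87.2, while PAX2 was low in both lines (0.627 to 4.51 and 3.58 to 4.33). The first 4 of these followed the titles. The labels do not say that the pools of a line came from separate cultures. The p-values of the fits over all genes rest on the spread between replicate libraries or pools. Those of the label permutations compare RBPs within the pools. The P of a peak rests on the reads of 1 library and its background.

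An RBP that binds the transcript of its own gene can set its own level through splicing, decay or translation of that transcript, and RBFOX2 is known to do so through introns of its pre-mRNA. The 10 proteins act at different steps. RBFOX2 selects alternative exons by binding GCAUG. SF3B4 is a subunit of the U2 snRNP that lies just upstream of the branch point, and PRPF8 is the scaffold of the U5 snRNP at the centre of the spliceosome. EIF3G, a subunit of the initiation factor eIF3, and DDX3X, a DEAD-box helicase, serve translation. PUM2 binds the Pumilio element (TGTANATA in DNA letters) in 3′ UTRs and lowers mRNA stability and translation. IGF2BP2 stabilises mRNAs, LIN28B blocks the maturation of let-7 miRNAs and also binds mRNAs at GGAG, and FAM120A is a cytoplasmic RBP. ZC3H11A serves the export of mRNA from the nucleus.

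Sites of 4 kinds recur below and are shown here as windows of 30 bases of GRCh38, in DNA letters and 5′ to 3′ on the strand of the gene. The first kind is RBFOX2 and PUM2 on their own transcripts, with GCATG (RBFOX2) and TGTANATA (PUM2) in capitals. The GCATG matches lay inside the RBFOX2 peaks. The TGTANATA matches lay outside the PUM2 peaks, 49 (K562) and 23 (HEK293T) bases from the peak centre.
RBFOX2 on RBFOX2, K562, chr22:35756720-35756749, minus strand, intron: gccaaatcttatcGCATGtctaatgtgcag
RBFOX2 on RBFOX2, HEK293T, chr22:35756210-35756239, minus strand, intron near a 3′ splice site: gtagagcGCATGtGCATGctgccgtcctca
PUM2 on PUM2, K562, chr2:20251142-20251171, minus strand, 3′ UTR: gtttatagagaTGTATATAgaattatagtc
PUM2 on PUM2, HEK293T, chr2:20250882-20250911, minus strand, 3′ UTR: tacagaaatatTGTATATActtacatatgt
The second kind is PRPF8 at annotated 5′ splice sites, where the capitals mark the first 6 bases of the intron.
PRPF8 on PRPF8, chr17:1659821-1659850, minus strand: ctgactccaaGTAAGTgcctcaggacccag
PRPF8 on DDX3X, chrX:41337456-41337485, plus strand: acagccagcaGTAAGTacaacatcttgtgg
PRPF8 on IGF2BP2, chr3:185696592-185696621, minus strand: gtggaacaagGTAATAagtgaggaagcctt
PRPF8 on FAM120A, chr9:93558709-93558738, plus strand: tcccagggcgGTAATTatacccaccccttc
The third kind is SF3B4 just before annotated 3′ splice sites, where the capitals mark the last bases of the intron.
SF3B4 on SF3B4, chr1:149926043-149926072, minus strand: taactcttcctttttccatttcctctatAG
SF3B4 on DDX3X, chrX:41344000-41344029, plus strand: agttaacttaaaaattaacttatttcttAG
The fourth kind is LIN28B on the PRPF8 mRNA, with GGAG in capitals, and on its own transcript, where its peak held no GGAG within 50 bases. On PRPF8 the GGAG lay outside the peak in both lines, 34.5 (K562) and 36 (HEK293T) bases from its centre.
LIN28B on PRPF8, K562, chr17:1661583-1661612, minus strand, start of the intron after the peak: aggtgggcacctaGGAGggcatgccaaccc
LIN28B on PRPF8, HEK293T, chr17:1661672-1661701, minus strand: acatacagccatgGGAGagcgagttcattg
LIN28B on LIN28B, both lines, chr6:104950552-104950581, plus strand, intron: gttttaaaagatcaagatcgctagaggcat

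Each RBP was compared with the other 9 of its pools on every mRNA. Reads in merged peaks were summed per gene and library and are given as RPM, with the reads in all merged peaks of a library scaled to 1e6. That total ranged from 13667 (PUM2, K562) to 2550193 (RBFOX2, HEK293T). A pair of RBP and mRNA is called higher where limma-voom over 10741 genes gives an adjusted p below 0.05 and every replicate holds reads. The 10 contrasts of a line share their libraries, so that an mRNA high for 1 RBP is lower by construction for the rest. Separately, a peak is called enriched, after the study's limits, at P below 0.001 and more than 8 times over the complement control (CC), in which the reads of the remaining 9 antibodies of that pool are added up.

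Of the 100 pairs, 16 were called higher in K562 and 15 in HEK293T, near the background of 13.7% and 15.2% of all pairs of RBP and gene tested. Together these were 24 different pairs, of which 7 were called in both lines and 21 joined an RBP to the mRNA of another RBP. Own pairs made up 2 of the calls in K562 (FAM120A and PRPF8) and 1 in HEK293T (RBFOX2). The median log2 difference of the 10 own pairs was 1.08 in K562 and 0.89 in HEK293T, and 8 of 10 were above 0 in each line. The median of the other 90 pairs was 0.10 and 0.23. Over all genes the median for 1 RBP was not 0. In K562 it ran from −0.75 (SF3B4) to 1.42 (PUM2), and in HEK293T from −0.67 (EIF3G) to 0.92 (PRPF8). The own values of PUM2 in K562 (1.19) and PRPF8 in HEK293T (0.37) were above 0 but below that median. For DDX3 in K562 (−0.29) and EIF3G in HEK293T (−0.09) it was the reverse. PUM2 on SF3B4 in K562 stood at 1.32 with 0 reads in each library. Of the pairs with reads in all replicates, 16 of 61 in K562 (26.2%) and 27 of 85 in HEK293T (31.8%) held an enriched peak in every replicate, beside 23.8% and 23.6% of such pairs over all genes. Among own pairs this was so for 2 of 8 and 5 of 10.

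**Figure D1:**
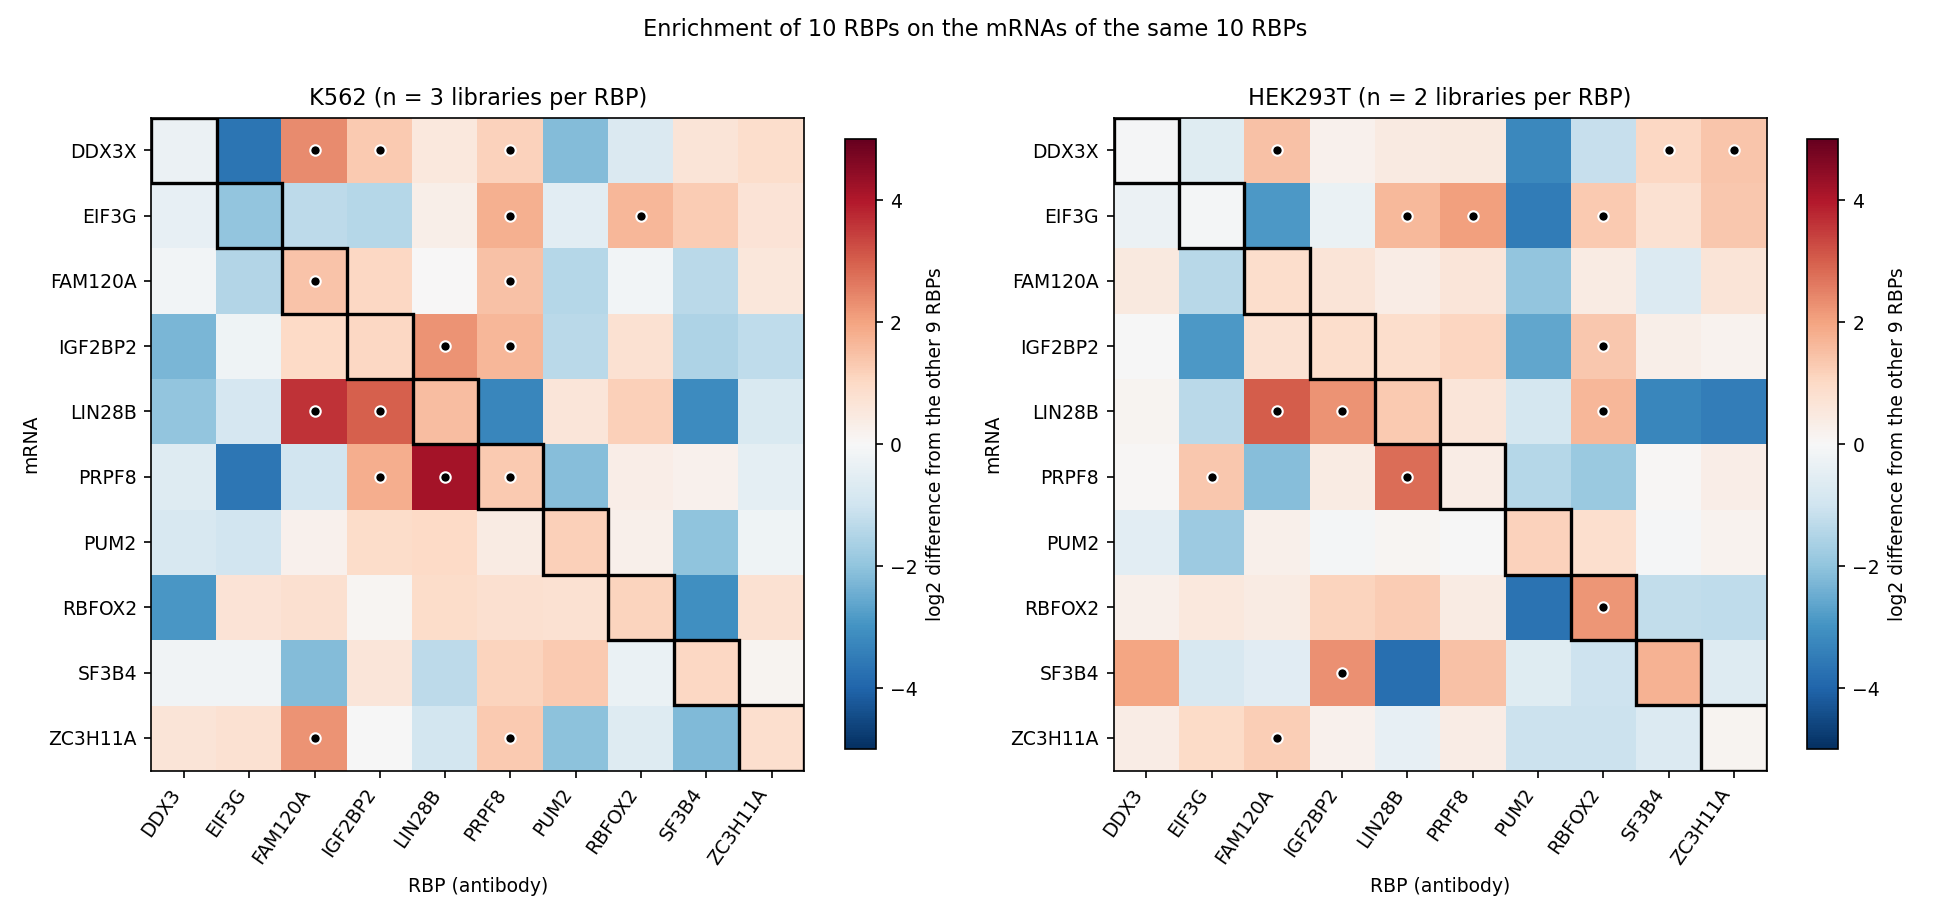
Log2 difference of each RBP (columns) from the other 9 on each mRNA (rows), for K562 (n = 3 libraries per RBP) and HEK293T (n = 2). Dots mark called pairs, 16 in K562 and 15 in HEK293T, and black frames the own pairs; the largest value is LIN28B on the PRPF8 mRNA in K562, at 4.15.

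Among the splicing factors, RBFOX2 stood highest on its own transcript (chr22:35738736-36028824, minus strand) in HEK293T. It held 620 and 576 RPM (940 and 1469 reads) there, while the other 9 RBPs held between 0 and 402 RPM. Both RBFOX2 libraries were above every other library of their pools, and the log2 difference was 2.20 ± 0.314 (SE, limma-voom, adjusted p = 1.78e-07). When the label RBFOX2 was given to every possible choice of 1 library per pool (exact permutation, one-sided, unadjusted), p was 0.01, the smallest that 100 choices allow. In K562 RBFOX2 held 44.9, 58.0 and 16.3 RPM (21, 38 and 6 reads) against 0 to 111 for the others. These groups overlapped, and the log2 difference of 1.12 ± 0.659 did not pass (limma-voom, adjusted p = 0.175). The difference between the lines, 1.08 ± 0.73, did not pass either (limma-voom, adjusted p = 0.287). The RBFOX2 transcript itself was recovered less in K562, at 29.5 RPM over the whole pool against 308 in HEK293T.

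The 20 enriched RBFOX2 peaks on its own transcript in HEK293T all lay in introns: 8 were distal (over 500 bases from a splice site), 7 proximal, 3 at a 3′ splice site and 2 at a 5′ splice site, that is within 100 bases of it. They formed 14 sites, 4 of them in both replicates. The leading site (chr22:35756198-35756234, minus strand) carried 72 and 84 reads, with a mean log2 fold of 4.50 ± 0.578 (SD, n = 2) over the CC, and the GCATGTGCATG printed above lay 8 bases from its centre. In K562 the 2 enriched peaks fell on 1 intronic site (chr22:35756687-35756743, minus strand), with 5, 8 and 0 reads. Of all enriched RBFOX2 peaks on the 10 mRNAs, 13 of 17 in K562 (76.5%, exact 95% interval 50.1 to 93.2%) and 24 of 35 in HEK293T (68.6%, 50.7 to 83.1%) had GCATG on the gene's strand within 50 bases. The share was 66.5% and 70.8% over all enriched RBFOX2 peaks, and 12.0% and 13.2% in the enriched peaks of the other 9 RBPs on the same mRNAs. Intervals cover counting error only.

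RBFOX2 was called on 1 of the 10 mRNAs in K562 (background 14.2% of all genes) and on 4 in HEK293T (background 28.1%). Besides its own these were EIF3G in both lines, and IGF2BP2 and LIN28B in HEK293T. On EIF3G it held 103, 108 and 144 RPM in K562 (log2 difference 1.66 ± 0.506, limma-voom, adjusted p = 0.00649) and 345 and 285 in HEK293T (1.32 ± 0.335, adjusted p = 0.00129, and 0.0745 with touching peaks counted once). In K562 it was above every other library in 2 of 3 pools. The leading EIF3G site, in a proximal intron, held this window with GCATG in capitals.
RBFOX2 on EIF3G, chr19:10116476-10116505, minus strand: tagtgtctccgttGCATGcctgtggctgta
Its reads there in K562 were 9, 26 and 13, and the peak was enriched in 1 of 3 replicates. In HEK293T RBFOX2 held 0 enriched peaks on EIF3G in either replicate. On IGF2BP2 in HEK293T RBFOX2 held 191 and 171 RPM, above the 0 to 156 of all others (1.35 ± 0.443, limma-voom, adjusted p = 0.0121). On LIN28B it held 81.2 and 71.0 RPM among 0 to 187 (1.64 ± 0.521, adjusted p = 0.00968). Its enriched peaks in the HEK293T replicates numbered 3 and 0 on IGF2BP2 and 0 in both on LIN28B. The calls on EIF3G in K562 and on IGF2BP2 and LIN28B in HEK293T were lost with 1 library left out. Without replicate 2 the log2 difference was 1.65 on EIF3G in K562 (limma-voom, adjusted p = 0.06) and 1.14 on IGF2BP2 in HEK293T (adjusted p = 0.206). On LIN28B it was 1.36 without replicate 1 (adjusted p = 0.243) and 1.90 without replicate 2 (adjusted p = 0.0761). Where 1 of the 2 HEK293T replicates is left out, here and further on, the remaining library of the RBP is assumed to vary like the other libraries.

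PRPF8 was called on 6 of the 10 mRNAs in K562 (background 39.6%) and on 1 in HEK293T (background 35.7%). On its own mRNA (chr17:1650629-1684867, minus strand) it held 368, 255 and 200 RPM in K562 (188, 149 and 150 reads), with a log2 difference of 1.31 ± 0.319 (limma-voom, adjusted p = 0.000505). LIN28B stood above it in every pool, and the exact one-sided permutation gave p = 0.123. In HEK293T it held 626 and 650 RPM, a log2 difference of 0.37 ± 0.231 that did not pass (limma-voom, adjusted p = 0.187). The other calls in K562 were DDX3X (250, 224 and 270 RPM, log2 1.15), FAM120A (242, 168 and 216, log2 1.45), IGF2BP2 (176, 245 and 195, log2 1.67), ZC3H11A (285, 246 and 230, log2 1.30) and EIF3G (196, 108 and 115, log2 1.77). EIF3G was the mRNA called in HEK293T too, at 256 and 808 RPM (2.04 ± 0.334, limma-voom, adjusted p = 1.12e-05), where the replicates lay far apart. Without replicate 2 its adjusted p was 0.185, and in K562 the calls on DDX3X (0.0535 without replicate 3) and FAM120A (0.0622 without replicate 1) were lost too.

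On these mRNAs PRPF8 sat at 5′ splice sites. Of its enriched peaks, 55 of 63 in K562 (87.3%) and 37 of 41 in HEK293T (90.2%) reached within 10 bases of an annotated 5′ splice site. Over all its enriched peaks the shares were 86.2% and 83.2%, and for the other 9 RBPs on the 10 mRNAs 7.32% and 3.54%. By the priority rule used here for regions, which names the coding sequence first, 82.5% of the same K562 peaks count as CDS. On its own transcript the leading site (chr17:1659796-1659857, minus strand) was enriched in 3 of 3 and 2 of 2 replicates, with 30, 18 and 16 reads in K562 and 28 and 57 in HEK293T. Its centre lay 14 bases into the intron that starts with the GTAAGT printed above. On DDX3X the leading site held 32, 36 and 52 reads in K562 and 89 and 134 in HEK293T, and its log2 fold over the CC was between 2.73 and 3.56.

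SF3B4 marked the other end of the intron. A 3′ splice site followed within 50 bases of the centre in 27 of its 33 enriched peaks in K562 (81.8%) and 19 of 31 in HEK293T (61.3%). Over all its enriched peaks this held for 71.9% and 59.1%, and for the other 9 RBPs on the 10 mRNAs for 0.362% and 0.481%. The shares for both splice sites were looked at after the peaks had been seen. SF3B4 was called on no member in K562 (background 9.95%; limma-voom, 1 at an unadjusted p below 0.05) and on 1 in HEK293T (background 9.39%), DDX3X, at 710 and 593 RPM (1.02 ± 0.348, limma-voom, adjusted p = 0.0225, and 0.586 without replicate 1). On its own mRNA (chr1:149923317-149927803, minus strand), which gave few reads to any RBP, it held 28.8, 26.7 and 15.8 RPM in K562 (8, 13 and 3 reads) and 103 and 38.9 in HEK293T (27 and 16 reads). The log2 differences, 1.02 ± 0.872 and 1.72 ± 0.905, did not pass (limma-voom, adjusted p = 0.337 and 0.151). Its own site in K562 (chr1:149926047-149926094, minus strand) was enriched in 2 of 3 replicates, 28 bases before the 3′ splice site, and the HEK293T site (chr1:149926096-149926161) in 2 of 2, 86 bases before the same splice site.

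**Figure D2:**
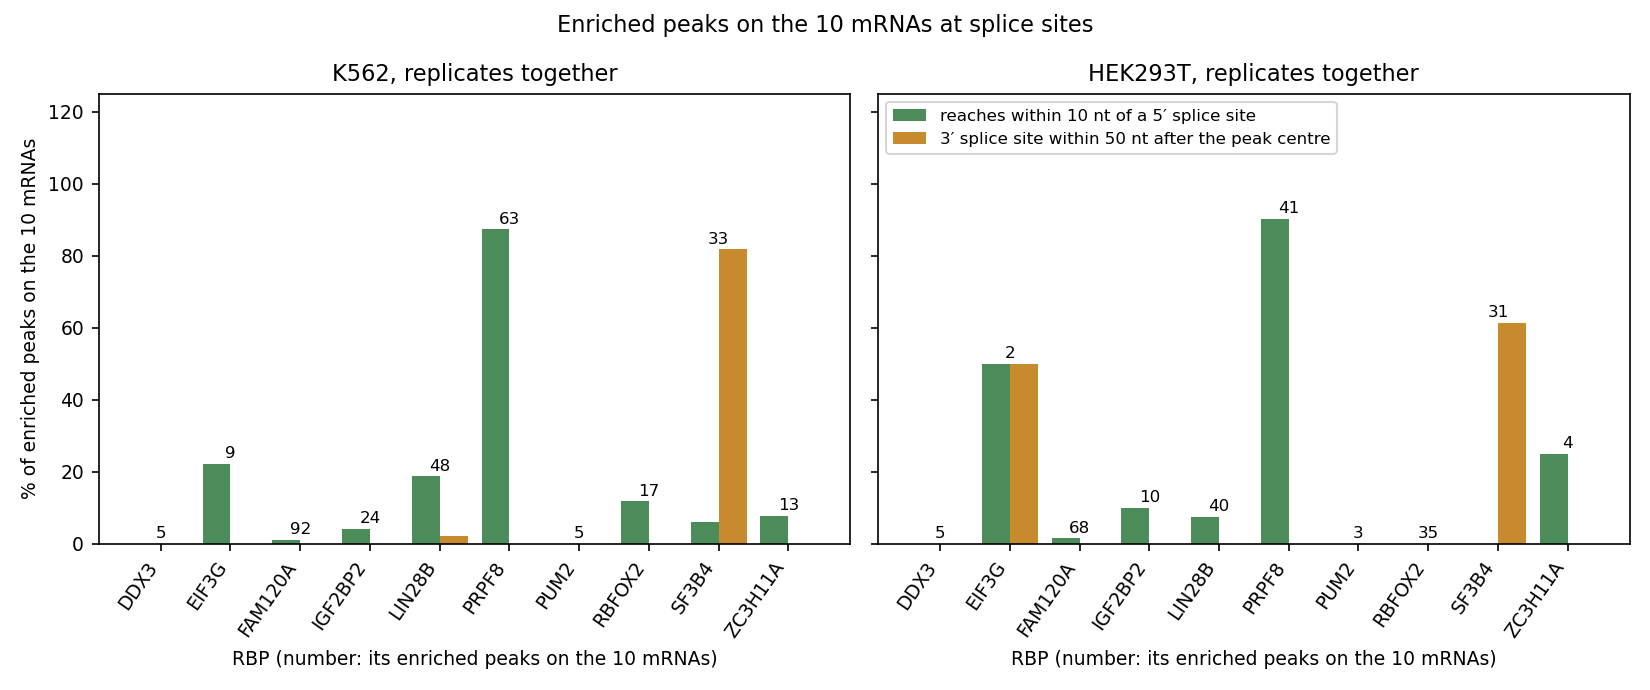
Share of the enriched peaks of each RBP on the 10 mRNAs that reach within 10 bases (nt) of a 5′ splice site (green) or have a 3′ splice site within 50 bases after their centre (orange) with the replicates of a line pooled. Numbers above the bars count the enriched peaks; PRPF8 leads at 5′ splice sites with 87.3% in K562 and 90.2% in HEK293T and SF3B4 before 3′ splice sites with 81.8% and 61.3%, while EIF3G in HEK293T rests on 2 peaks.

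Of the translation factors, neither DDX3 nor EIF3G was high on its own mRNA. DDX3 held 24.2, 175 and 150 RPM on DDX3X (chrX:41333348-41364472, plus strand) in K562 (3, 29 and 31 reads) and 311 and 323 in HEK293T. The log2 differences, −0.29 ± 0.546 and −0.08 ± 0.385, were close to 0, and their sign changed with the setting (limma-voom, adjusted p = 0.757 and 0.912). Of its peaks there 1 was enriched, in the 5′ UTR in 1 K562 library, with 6 reads. DDX3 was called on no member in either line (background 8.74% and 13.6%) by limma-voom. At an unadjusted p below 0.05 it was higher on 0 and 1.

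EIF3G had no peak on its own mRNA (chr19:10115014-10119918, minus strand) in any of the 3 K562 libraries. These were small (32490 to 46565 reads), and the 3 reads a peak needs equal 64.4 to 92.3 RPM, so a level below that was not detectable. In HEK293T it held 134 and 115 RPM (11 and 17 reads), a log2 difference of −0.09 ± 0.758 (limma-voom, adjusted p = 0.945). EIF3G was called on no member in K562 (background 3.05%; limma-voom, 0 also at an unadjusted p below 0.05) and on 1 in HEK293T (background 4.98%), the PRPF8 mRNA, with 928 and 1367 RPM (1.34 ± 0.365, limma-voom, adjusted p = 0.00472). It held no enriched peak there, and without replicate 2 the adjusted p was 0.265.

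**Figure D3:**
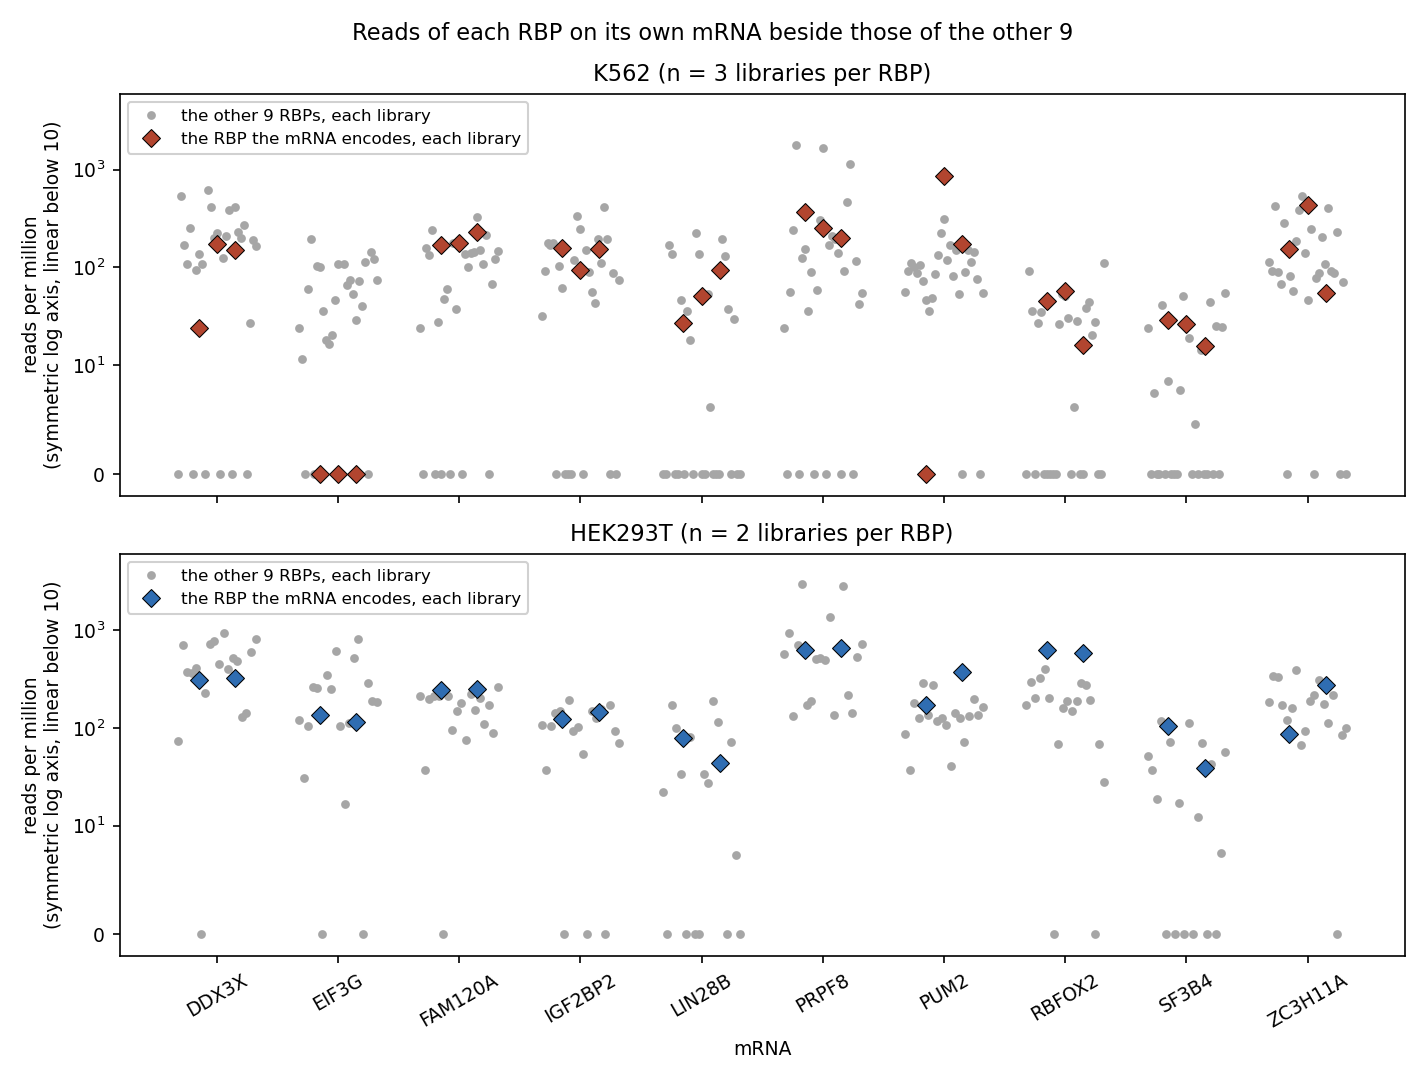
RPM of each RBP on the mRNA it is encoded by (diamonds) beside the other 9 RBPs (grey dots), 1 point per library, for K562 and HEK293T, on a symmetric log axis that is linear below 10. RBFOX2 in HEK293T, at 620 and 576, lies above all other libraries, while EIF3G in K562 lies at 0.

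FAM120A held more enriched peaks on these mRNAs than any other RBP, 92 of the 309 in K562 (29.8%) and 68 of the 239 in HEK293T (28.5%). Over all genes it held 20.6% and 27.1% of the enriched peaks. It was called on 4 of 10 in K562 (background 26.7%) and on 3 in HEK293T (background 30.7%). Its median log2 difference over the 10 mRNAs was 0.90 in K562 and 0.58 in HEK293T, where the median over all genes was −0.57 and 0.26. On its own mRNA (chr9:93451685-93566112, plus strand) it held 169, 178 and 229 RPM in K562 (160, 390 and 190 reads) and 245 and 247 in HEK293T (422 and 606 reads). The K562 difference passed, at 1.41 ± 0.446 (limma-voom, adjusted p = 0.0057), and that of HEK293T, 0.89 ± 0.389, did not (adjusted p = 0.0568). On log2 RPM without weights the K562 difference did not pass either (adjusted p = 0.0634). The exact one-sided permutation gave p = 0.03 and 0.02, unadjusted. All 10 and 9 enriched peaks there lay in the 3′ UTR. Over the 10 mRNAs 67.4% and 75.0% of its enriched peaks did, with regions read from the transcripts of that gene alone. The share was 96.0% and 96.5% of all its enriched peaks, but there regions were read from the transcripts of any gene. The rest on the 10 mRNAs, 30 and 17 peaks, all counted as 5′ UTR of ZC3H11A, in the exon that also holds ZBED6. Of these, 29 and 17 lay after the ZBED6 coding sequence, where the second reading can name a ZBED6 3′ UTR first. The lower share on the 10 mRNAs can thus not be set against the higher one. The site at chr9:93565556-93565605 (plus strand) was enriched in 3 of 3 K562 replicates, with 23, 87 and 41 reads and a mean log2 fold of 4.24 ± 0.36 (SD, n = 3).

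On DDX3X FAM120A held 534, 624 and 414 RPM in K562, above every other library of its pool each time (log2 difference 2.35 ± 0.289, limma-voom, adjusted p = 3.28e-09). In HEK293T it held 694 and 923 RPM and was highest in 1 of 2 pools (1.46 ± 0.234, adjusted p = 1.15e-06, and 0.0798 on log2 RPM without weights). All 27 and 18 enriched peaks lay in the 3′ UTR, on 10 and 8 sites, of which 4 were enriched in all 3 K562 replicates and 5 in both HEK293T replicates. The leading K562 site (chrX:41348766-41348853, plus strand) held 55, 168 and 62 reads.

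The LIN28B mRNA (chr6:104936616-105083332, plus strand) gave the largest difference of FAM120A from the rest among the 10. FAM120A held 168, 226 and 194 RPM there in K562, where no other library went above 139, and 170 and 187 in HEK293T, where none went above 114. The log2 differences were 3.62 ± 0.43 (limma-voom, adjusted p = 1.33e-09) and 3.05 ± 0.446 (adjusted p = 1.8e-07). The 17 and 12 enriched peaks were again all in the 3′ UTR, but they were scattered over 15 and 11 sites, and 1 site in each line was enriched in more than 1 replicate.

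IGF2BP2 came next on the same mRNA, with 138, 139 and 130 RPM in K562 and 100 and 114 in HEK293T. Its log2 differences were 3.00 ± 0.565 (limma-voom, adjusted p = 6.82e-05) and 2.24 ± 0.59 (adjusted p = 0.0058, and 0.157 and 0.143 with 1 HEK293T replicate left out). It held 4 enriched peaks there in K562, all in the 3′ UTR, and 0 in either HEK293T replicate. LIN28B itself held 26.9, 50.6 and 94.2 RPM on its mRNA in K562 (4, 12 and 14 reads) and 79.5 and 43.6 in HEK293T (18 and 11 reads). These spread over a range that other RBPs shared, and the differences, 1.54 ± 0.728 and 1.29 ± 0.839, did not pass (limma-voom, adjusted p = 0.101 and 0.268).

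The enriched LIN28B peaks on its own transcript lay elsewhere than those of FAM120A and IGF2BP2. All 2 in K562 and 3 in HEK293T fell on 1 intronic spot, chr6:104950556-104950578 (plus strand), whose centre was 57.5 bases after a 5′ splice site. It held 0, 3 and 5 reads in K562 and 14 and 4 in HEK293T. No other RBP had a peak there in any pool. The log2 fold over the CC was 5.70 and 6.47 in the K562 libraries with reads and 8.27 and 6.81 in HEK293T.

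LIN28B on the PRPF8 mRNA had the largest log2 difference of the 100 pairs in K562, and in HEK293T it came after FAM120A on LIN28B. It held 1803, 1671 and 1151 RPM in K562 (268, 396 and 171 reads), where the highest other library was at 472. In HEK293T it held 2960 and 2845 RPM (670 and 718 reads) against at most 1367. All 5 LIN28B libraries were above every other library of their pools, and the log2 differences were 4.15 ± 0.296 (limma-voom, adjusted p = 2.9e-15) and 2.79 ± 0.239 (adjusted p = 1.88e-12). Of its enriched peaks there, 21 of 24 in K562 and 14 of 15 in HEK293T lay in the coding sequence. They formed 13 sites in K562, 4 of them in all 3 replicates, and 10 in HEK293T, 2 of them in both. The leading sites of the lines were neighbours: chr17:1661613-1661651 in K562 (75, 72 and 45 reads, log2 folds over the CC of 6.35, 5.96 and 4.94) and chr17:1661646-1661655 in HEK293T (85 and 163 reads, log2 folds of 6.17 and 6.60).

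LIN28B was called on 2 of the 10 mRNAs in K562 (background 12.7%) and on 2 in HEK293T (background 8.07%). The second in K562 was IGF2BP2, with 168, 333 and 417 RPM (2.26 ± 0.572, limma-voom, adjusted p = 0.00206), and in HEK293T EIF3G, with 261 and 511 RPM (1.61 ± 0.5, adjusted p = 0.0123, and 0.453 without replicate 2). LIN28B held 0 enriched peaks on EIF3G in either HEK293T replicate. On IGF2BP2 its leading site lay in a distal intron (chr3:185646366-185646414, minus strand), with 20, 38 and 29 reads in K562 and 20 and 15 in HEK293T. It was enriched in every replicate of both lines, at a mean log2 fold of 6.94 ± 0.547 (SD, n = 3) and 7.59 ± 1.69 (SD, n = 2). GGAG lay within 50 bases of 30 of its 48 enriched peaks on members in K562 (62.5%) and 26 of 40 in HEK293T (65.0%), beside 66.5% and 65.2% of all its enriched peaks and 29.9% and 36.7% of those of the other 9 RBPs on the 10 mRNAs. This motif was added after the data had been seen.

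IGF2BP2 was called on 3 members in K562 (background 16.8%) and on 2 in HEK293T (background 16.2%). Beside LIN28B these were DDX3X (170, 420 and 231 RPM, log2 1.30) and PRPF8 (244, 308 and 472 RPM, log2 1.80) in K562, and SF3B4 in HEK293T (117 and 70.6 RPM, log2 2.28). The adjusted p on DDX3X was 0.116 without K562 replicate 2, and that on SF3B4 0.25 and 0.131 with either HEK293T replicate left out. Its own mRNA (chr3:185643130-185825042, minus strand) was not among them. There it held 159, 94.8 and 156 RPM in K562 and 124 and 144 in HEK293T, with log2 differences of 1.04 ± 0.598 and 0.89 ± 0.574 (limma-voom, adjusted p = 0.163 and 0.276). In K562 15 of its 24 enriched peaks on members were in the coding sequence and 8 in 3′ UTRs. On SF3B4 in HEK293T it held 0 enriched peaks in either replicate.

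**Figure D4:**
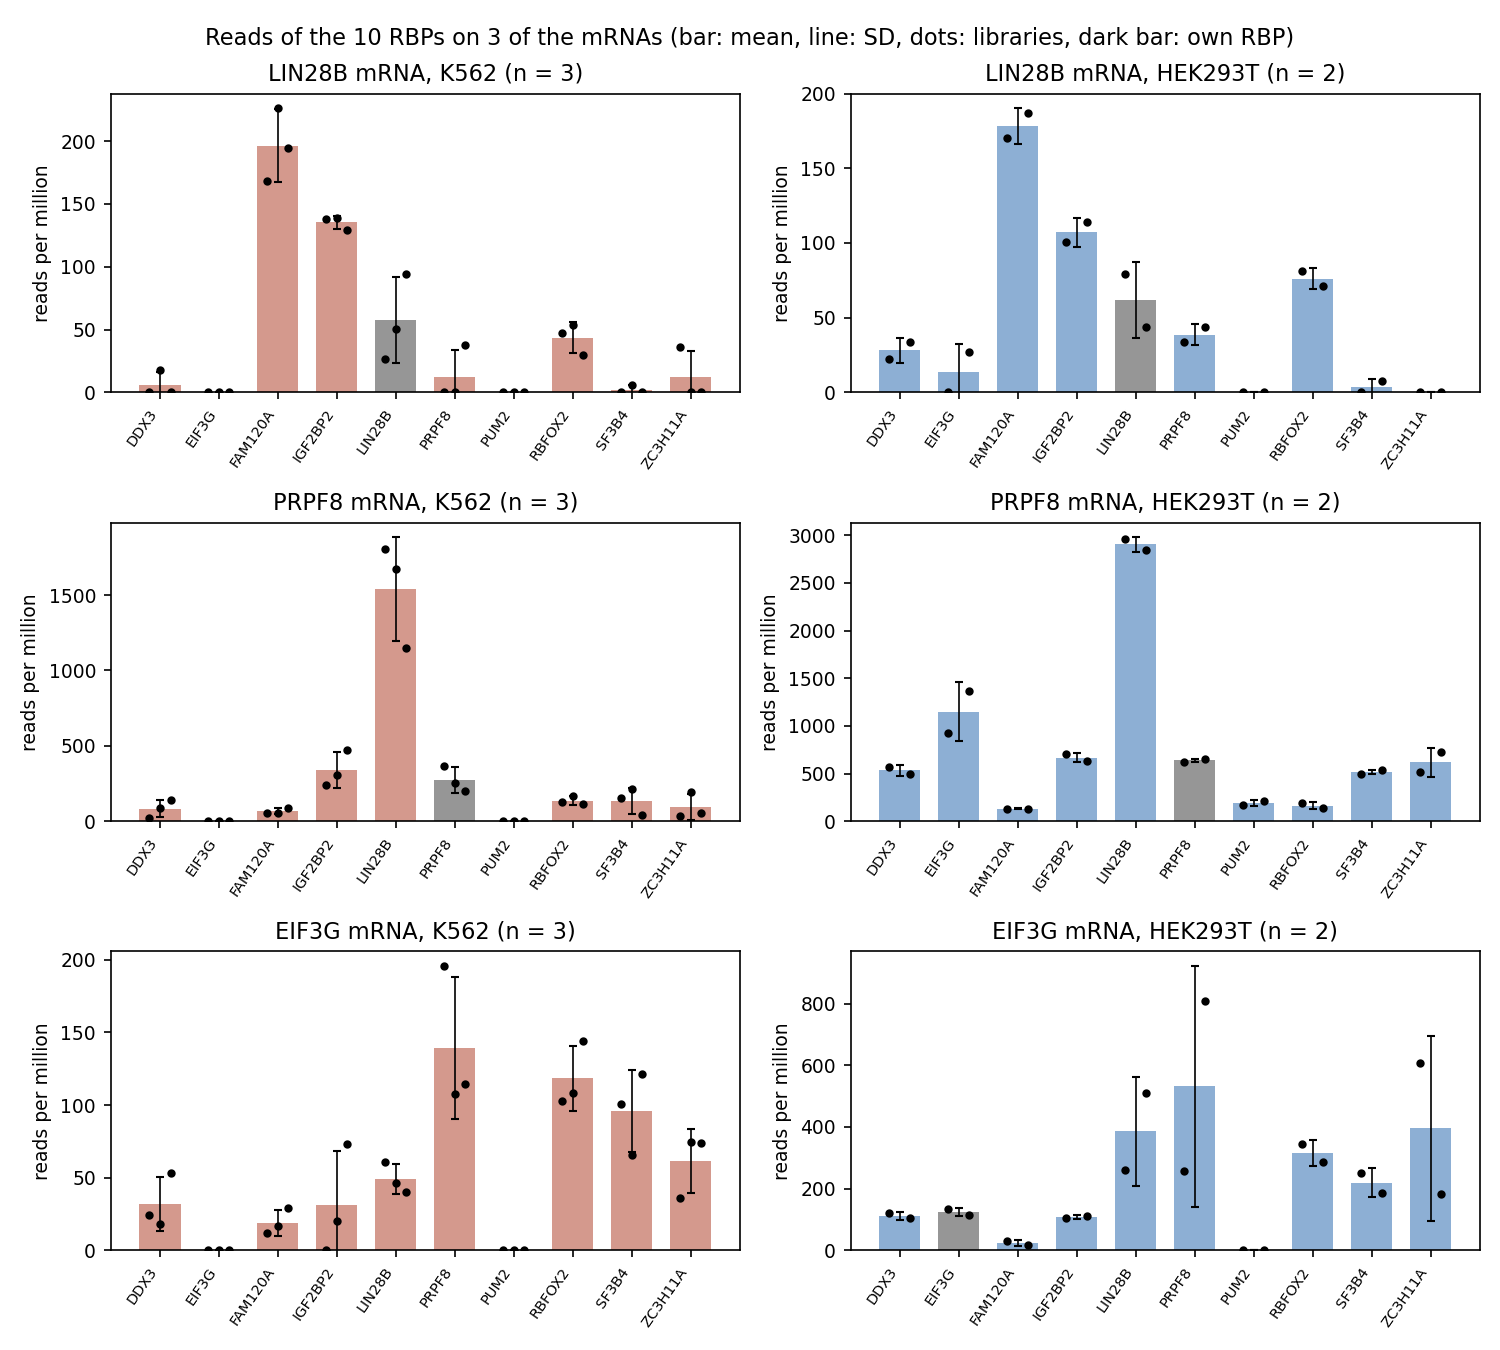
RPM of the 10 RBPs on the LIN28B, PRPF8 and EIF3G mRNAs in K562 (n = 3) and HEK293T (n = 2). Bars are means, lines SD, dots libraries, and the dark bar is the RBP the mRNA encodes. FAM120A leads on LIN28B (mean 196 and 178), LIN28B on PRPF8 (1542 and 2902) and PRPF8 on EIF3G (139 and 532).

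PUM2 libraries were the shallowest, with 13667 to 46117 reads, so that few reads decide each value. On its own mRNA (chr2:20248691-20352234, minus strand) PUM2 held 0, 859 and 175 RPM in K562 (0, 16 and 3 reads) and 171 and 369 in HEK293T (4 and 17 reads). In the library at 0 the 3 reads of a peak would equal 220 RPM. The log2 differences were 1.19 ± 0.679 and 1.16 ± 0.805 and did not pass (limma-voom, adjusted p = 0.121 and 0.299), while the exact one-sided permutation gave 0.575 and 0.04. PUM2 was called on no member in either line (background 1.85% and 1.06%; limma-voom, 0 in both also at an unadjusted p below 0.05). Its own mRNA held all 5 of its enriched peaks on the 10 mRNAs in K562 and 2 of 3 in HEK293T, all in the 3′ UTR. By replicate these were 0, 4 and 1 in K562 and 0 and 2 in HEK293T, so most came from 1 library per line. The K562 site (chr2:20251088-20251127, minus strand) was enriched in 2 of 3 replicates, with 5 and 3 reads. TGTANATA lay within 50 bases of 3 of 5 (60%, exact 95% interval 14.7 to 94.7%) and 1 of 3 peaks (33.3%, 0.84 to 90.6%), beside 23.7% and 15.1% of all enriched PUM2 peaks and 2.96% and 3.39% of those of the other 9 RBPs on the 10 mRNAs. None of these matches lay inside a peak itself.

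ZC3H11A, the export factor, held 156, 440 and 55.3 RPM on its own mRNA (chr1:203795623-203854999, plus strand) in K562 (13, 47 and 3 reads) and 86.8 and 272 in HEK293T (11 and 58 reads). The replicates lay far apart, and the log2 differences, 0.85 ± 0.616 and 0.14 ± 0.677, did not pass (limma-voom, adjusted p = 0.339 and 0.908). It was called on no member in K562 (background 3.07%, and by limma-voom 0 also at an unadjusted p below 0.05). In HEK293T it was called on DDX3X (background 4.45%), with 766 and 812 RPM (1.38 ± 0.392, limma-voom, adjusted p = 0.00719). That call was lost without replicate 1, and ZC3H11A held 0 enriched peaks on DDX3X in either HEK293T replicate.

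The ZC3H11A gene hosts a second one, ZBED6, a transcription factor gene of transposon origin that is read from the same transcript. The exon that holds it (chr1:203795623-203803016, plus strand) is read as 5′ UTR of ZC3H11A over part of its length. Near its start, enriched EIF3G peaks of K562, 0.222 and 0.46 kb from the gene start, counted as 5′ splice site and proximal intron of ZC3H11A. The annotated span of ZBED6 (chr1:203795623-203854124) runs along nearly all of ZC3H11A. Of the reads on ZC3H11A 99.9% lay in peaks that overlap that span, and a short annotated gene, ENSG00000288644, lies in the same exon. In the deposited peak lists that name a gene, the region read here was the same for 146 of 280 ZC3H11A peaks (52.1%), beside 99.4% on the other 9 mRNAs, and no 5′ UTR peak was among those 280. The remaining 134 were 3′ UTR in those lists and CDS here, so that the CDS label on this gene is uncertain. FAM120A was called on ZC3H11A in both lines, with 423, 543 and 402 RPM in K562 (2.24 ± 0.345, limma-voom, adjusted p = 3.06e-07) and 334 and 311 in HEK293T (1.22 ± 0.342, adjusted p = 0.00274, and 0.0502 without replicate 2). Of these reads 77.3% in K562 and 81.3% in HEK293T lay in the ZBED6 exon, and 73.7% and 77.1% after the ZBED6 coding sequence, where 29 of its 35 and 17 of its 21 enriched peaks fell. Outside that exon FAM120A held 127, 108 and 96.5 RPM in K562 (mean 111 ± 15.4, SD, n = 3) and 68.5 and 53.8 in HEK293T (mean 61.2), and the means of the other 9 RBPs had a median of 38.7 and 82.1. The ZC3H11A protein put 0% of its own 63 reads into that exon in K562 and 11.6% of 69 in HEK293T. In that exon reads of ZBED6 and of the host transcript cannot be told apart. The split was made after the reads had been seen.

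**Figure D5:**
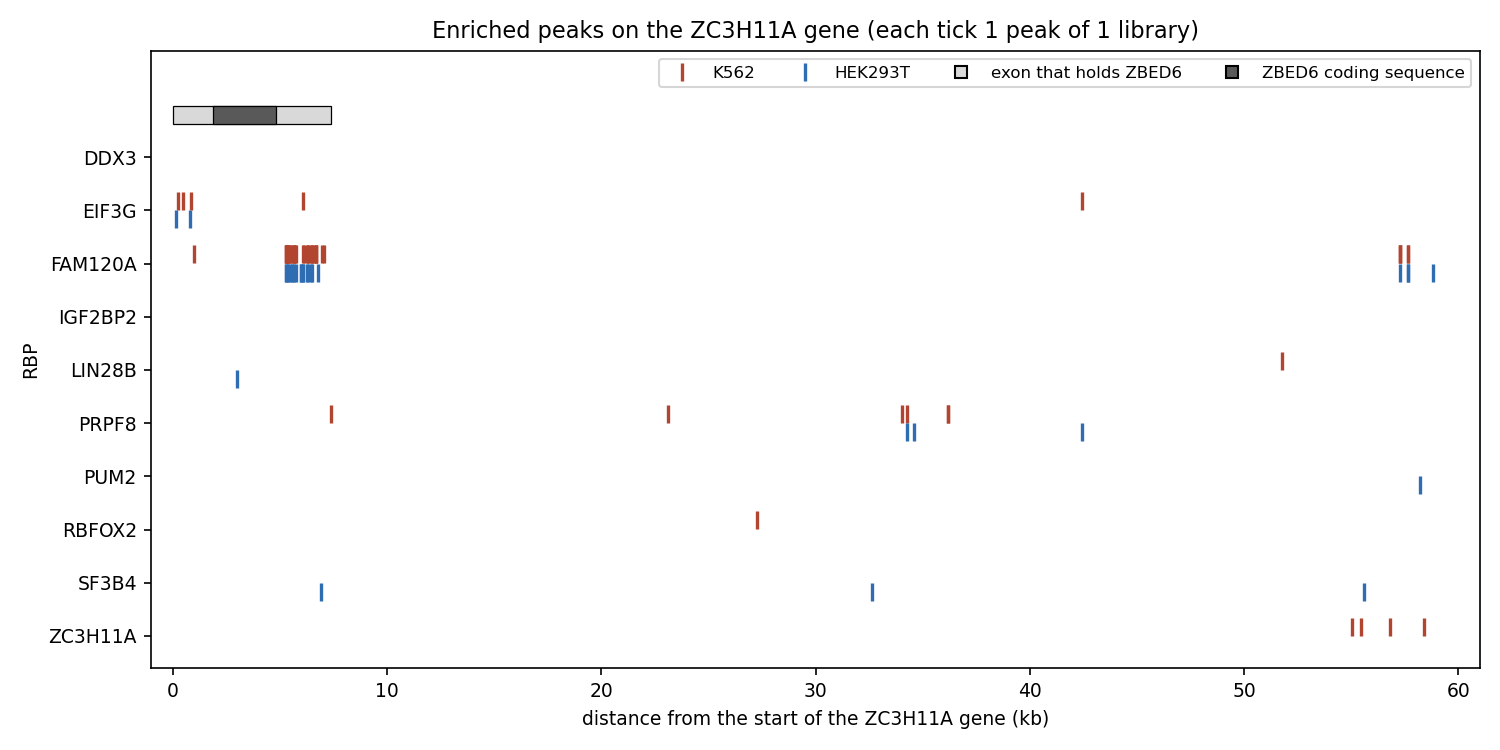
Enriched peaks of each RBP (rows) along the ZC3H11A gene, in kb from its start, 1 tick per peak and library (red K562, blue HEK293T). The bar at the top is the exon that holds ZBED6, its dark part the ZBED6 coding sequence; 29 of 35 K562 and 17 of 21 HEK293T ticks of FAM120A lie in the exon after the dark part.

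The lines were compared by testing the difference in enrichment itself. A pair was counted as passing only where all 5 libraries of the RBP held reads. Of all 107410 pairs of RBP and gene tested, with or without such reads, 1.25% passed in this way. Of the 100 pairs of RBP and mRNA 3 passed, all on the PRPF8 mRNA: IGF2BP2 (1.80 in K562, 0.42 in HEK293T), LIN28B (4.15 and 2.79) and RBFOX2 (0.32 and −1.85). The differences, HEK293T minus K562, were −1.38 ± 0.436, −1.35 ± 0.38 and −2.17 ± 0.47 (limma-voom, adjusted p = 0.03, 0.0235 and 0.00036). The call of IGF2BP2 was lost without K562 replicate 3 (adjusted p = 0.195), HEK293T replicate 1 (0.0857) or HEK293T replicate 2 (0.233). That of LIN28B was lost without any 1 library but K562 replicate 3 (adjusted p = 0.0539 to 0.105), while that of RBFOX2 held without each. In 7 further pairs the adjusted p was below 0.05 but a library held 0 reads, so no fold is given. Among them EIF3G on PRPF8 held 0 reads in each K562 replicate, where 3 reads make 64.4 to 92.3 RPM, and 928 and 1367 RPM in HEK293T (76 and 202 reads). Each of the 3 differences above is set against a mean of 9 RBPs that takes in EIF3G, so these zeros enter them. In RPM LIN28B held more on PRPF8 in HEK293T (2960 and 2845) than in K562 (1803, 1671 and 1151). So did IGF2BP2 (705 and 632 against 244, 308 and 472), while the RBFOX2 libraries overlapped.

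The reads of whole pools show how much of each mRNA all 10 RBPs recovered together, in which mRNA amount and binding cannot be told apart. Over all genes 43.6% were higher in HEK293T and 14.6% in K562, with a median log2 difference of 0.71. RBFOX2 rose most, from 28.7, 30.9 and 29.0 RPM in K562 to 318 and 298 in HEK293T (3.37 ± 0.236, limma-voom, adjusted p = 6.74e-05). EIF3G (1.86 ± 0.309, adjusted p = 0.00305), SF3B4 (1.15 ± 0.337, adjusted p = 0.0262) and PRPF8 (0.97 ± 0.206, adjusted p = 0.00783) were higher too. The other 6 did not pass, and IGF2BP2 stood at 138 RPM in K562 and 139 in HEK293T.

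Singleplex ABC of RBFOX2 was set beside RBFOX2 of the 10plex in HEK293T, with enrichment in both taken over an external RNA-seq library, since the singleplex has no CC. With 2 libraries each, no two-sided exact p goes below 0.33, and no test was made. The RBFOX2 transcript held 1087 and 1019 RPM in singleplex and 620 and 576 in 10plex, and EIF3G 714 and 1116 against 345 and 285. On these, and on FAM120A and LIN28B, both singleplex libraries were above both 10plex libraries. The means were lower in singleplex on 4 mRNAs: DDX3X (174 against 184 RPM), PRPF8 (145 against 166), SF3B4 (4.84 against 12.3) and ZC3H11A (41.8 against 75.8). The libraries overlapped on DDX3X and PRPF8 and not on SF3B4 and ZC3H11A. The singleplex libraries were deeper (4392612 and 2160315 reads against 1515692 and 2550193). They held 46 and 34 enriched peaks on the RBFOX2 transcript, of which 37 and 21 had GCATG, and the 10plex libraries 14 and 11, of which 11 and 8 had it. On all 10 mRNAs 73 of the 87 enriched 10plex peaks (83.9%) overlapped a singleplex one, and 86 of the 180 singleplex peaks (47.8%) a 10plex one. SLBP, which binds histone mRNAs, held 0 to 6 reads on each of the 10 mRNAs in either K562 library. These libraries were small, so that few reads make a high RPM. In replicate 2 the 6 reads on IGF2BP2 equal 308 RPM, in 2 peaks enriched over the external library. The 3 reads there on DDX3X and on ZC3H11A equal 154 RPM each, in 1 such peak. In replicate 1 6 reads equal 70.9 RPM.

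As context, 42 genes of the same complexes and families were read in the same way, of which 39 had enough reads. PRPF8 was called on 20 of them in K562 and 15 in HEK293T, LIN28B on 15 and 14, SF3B4 on 8 and 9, IGF2BP2 on 7 and 8, FAM120A on 6 and 8, RBFOX2 on 3 and 4, DDX3 on 2 and 7, ZC3H11A on 2 and 4 and EIF3G on 0 and 1. The list was chosen with earlier results known, and the background shares are those given above. The LIN28B calls took in partners of PRPF8 in the U5 snRNP and tri-snRNP: PRPF6 (log2 4.30 ± 0.556 in K562 and 2.97 ± 0.655 in HEK293T), SNRNP40 (4.27 ± 0.525 and 3.06 ± 0.617), PRPF4 (2.66 ± 0.69 and 2.47 ± 0.736), SNRNP200 (3.04 ± 0.339 in K562) and EFTUD2 (3.45 ± 0.5 in HEK293T). At most the 4 largest calls per RBP and line were named, so a line left out here may still hold a call.

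FAM120A was called on paralogs of IGF2BP2, IGF2BP1 (3.85 ± 0.213 and 3.66 ± 0.174) and IGF2BP3 (2.45 ± 0.36 and 2.86 ± 0.357), with the tallest peaks in the 3′ UTR. RBFOX2 was called on FAM120B (5.56 ± 0.336 and 4.11 ± 0.257), a paralog of FAM120A, with its tallest peak in a distal intron without GCATG within 50 bases. PRPF8 was called on the mRNAs of its own tri-snRNP partners PRPF31 (3.08 ± 0.504 and 2.1 ± 0.49) and DDX23 (2.90 ± 0.427 and 2.03 ± 0.432). The value of ZC3H11A on RBFOX1 (5.60 ± 0.57 and 5.39 ± 0.485) rested on 1 intronic spot, which held 96.2% and 98.1% of its reads and a peak of 8 and 9 other RBPs. SF3B4 on EIF3C in HEK293T (3.36 ± 0.744) is uncertain, since that gene has a near-identical copy and 96.6% of the reads lay at 1 spot.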

How the data were processed

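Libraries were grouped by their titles, 10plex K562 (n = 3 pools) and HEK293T (n = 2), and the 10 libraries of a replicate came from 1 pool. The authors removed adapters with cutadapt 2.8, mapped unique, UMI-collapsed reads with STAR 2.7.6 to GRCh38 and called peaks with CLIPper. The first deposited peak lists carry a p-value and a score for each peak. In the merged lists the authors set each peak against an external RNA-seq library and deposited a log2 fold with its −log10 P. Such a fold over the CC was deposited for K562 replicate 3 alone. Those files hold no counts, so the reads of each peak were recovered from fold and P. They fell within 1 read of the number in the peak name for 97.6% to 99.7% of peaks. This check was made only for libraries whose peak lists name no gene. It took in no library of the HEK293T pools, of K562 replicate 2 or of SLBP. For the other pools CC reads and CC folds were solved here from a deposited chi-squared statistic. Per library, whole CC reads gave that statistic back for 75.8% to 99.4% (K562) and 55.9% to 95.6% (HEK293T) of the peaks not read as depleted. CC reads were missing for 12.2% of member peaks. Reads were summed per gene and strand (GENCODE 44, against release 35 by the authors). Genes with a mean of at least 5 reads (10741) were fitted with limma-voom (limma 3.58.1, R 4.3.3) with the pool as a block and Benjamini-Hochberg adjustment at 0.05. Log2 RPM used a prior count of 2. Regions followed the priority CDS, 3′ UTR, 5′ UTR, 5′ and 3′ splice site (100 nt), proximal (500 nt) and distal intron. For peaks on the 10 mRNAs they were read from the transcripts of that gene alone, and for all peaks from the transcripts of any gene. Pairing was checked from deviations: median r was 0.15 between libraries of 1 K562 pool and −0.07 across pools (0.11 and −0.11 in HEK293T). On simulated counts the fit recovered 69.0% (K562) and 44.5% (HEK293T) of genes raised 4 times for FAM120A, and 19.0% and 18.0% for PUM2. The members, the lists and the rule for named pairs (the 3 largest t per mRNA where more were called, with every own pair) were chosen with earlier results of these data known. Some results are not reported here.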

Additional observations from a re-analysis of the deposited data

Results flagged for a closer look

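The enrichment of 3 RBPs on the PRPF8 mRNA differed between the lines by the test of the difference itself (limma-voom, HEK293T minus K562). IGF2BP2 differed by −1.38 (adjusted p = 0.03), LIN28B by −1.35 (adjusted p = 0.0235) and RBFOX2 by −2.17 (adjusted p = 0.00036) on the log2 scale. The PRPF8 mRNA was also recovered more by the whole pool in HEK293T than in K562, by 0.97 ± 0.206 on the log2 scale beside a median of 0.71 over all genes. The part of that in the differences was not tested.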

How the results depend on the processing

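Of the calls, 10 of 16 in K562 and 3 of 15 in HEK293T held under each alternative run; the 3 were FAM120A on LIN28B, LIN28B on PRPF8 and RBFOX2 on its own. With log2 RPM in place of voom 8 pairs were called in HEK293T, and with 1 replicate left out 8 to 10. Without the replicate block the counts were 16 in K562 and 15 in HEK293T. Own pairs called in HEK293T were 2 with peaks in repeats left out and 2 with median ratio scaling. With log2 RPM the own call of FAM120A in K562 was lost, as in HEK293T were those of FAM120A on DDX3X and ZC3H11A, IGF2BP2 on SF3B4, RBFOX2 on EIF3G, IGF2BP2 and LIN28B, and SF3B4 and ZC3H11A on DDX3X (adjusted p = 0.0566 to 0.293). Median ratio scaling lost IGF2BP2 on SF3B4 and SF3B4 on DDX3X in HEK293T, and leaving out repeats lost RBFOX2 on IGF2BP2 and LIN28B. Differences between lines passed for 6 pairs with touching peaks counted once, 5 with median ratio scaling, 1 with log2 RPM and 1 to 3 with a replicate left out.

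Own values that changed sign were all among those that did not pass. DDX3 in K562 was 0.12 with log2 RPM and with the permutation on it, and −0.74 to 0.37 with a replicate left out. In HEK293T DDX3 was 0.0139 without repeats, 0.0602 with log2 RPM and the permutation, and −0.38 to 0.20 with a replicate left out. EIF3G in HEK293T was 0.000433 with touching peaks counted once, 0.0288 without repeats and 0.0884 with log2 RPM and the permutation. PUM2 in K562 was −0.12 with median ratio scaling, and ZC3H11A in HEK293T −0.98 to 1.20 with a replicate left out. The causes were not tested.

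For whole pools, median ratio scaling left 2 mRNAs higher in HEK293T and 1 higher in K562, against 4 and 0, and leaving out a replicate gave 2 to 4. FAM120A turned to −0.11 and IGF2BP2 to −0.55 with that scaling, IGF2BP2 ranged from −0.027 to 0.045 and LIN28B from −0.22 to 0.13 with a replicate left out, and the mean over RBPs gave 0.57 for LIN28B and 0.66 for ZC3H11A.

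The background and the limits used for enrichment moved the peak counts. Mean enriched peaks per replicate, 103 in K562 and 119.5 in HEK293T, were 273 and 380.0 over the external background, 35.7 and 39.5 at P below 1e-05 and fold above 16, and 157 and 303.5 at any fold above 1. Pairs enriched in every replicate, 16 and 27, were 41 and 64, 7 and 10, and 52 in HEK293T at any fold above 1; with a replicate left out they were 18 to 29 and 30 to 46. Own pairs, 2 and 5, were 5 and 9 over the external background and 0 and 2 at the stricter limits, and 2 to 6 in K562 with a replicate left out.

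Regions depended on where a peak is read. CDS took 39.5% in K562 by priority, 21.1% at the peak centre and 50.9% over the external background, and introns 20.1%, 38.7% and 13.5%. In HEK293T CDS took 29.6%, 15.4% and 10.9%, introns 31.7%, 45.9% and 59.6%, and 3′ UTRs 29.7% and, over the external background, 17.5%. GCATG within the RBFOX2 peak alone was in 41.2% (K562) and 40% (HEK293T), over the external background in 40% in K562, and 71.4% to 100% with a K562 replicate left out. TGTANATA within the PUM2 peak alone was in 0% in both lines, and in 50.0% to 100% (K562) and 0% to 50.0% (HEK293T) with a replicate left out. At the stricter limits mean RBFOX2 peaks on the 10 mRNAs were 53.5 in singleplex and 22.0 in 10plex, against 90.0 and 43.5, and on its own transcript 23.5 and 5, against 40 and 12.5.

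Peaks confined to 1 gene gave no value for ZC3H11A, since the annotated span of ZBED6 runs along nearly all of it. Depth limited PUM2 and EIF3G, where a K562 library needed 64.4 RPM or more to show a peak of 3 reads for EIF3G and up to 220 RPM for PUM2.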
